A study of Mus musculus with 12 samples.

Results

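Concordant genes are those that an inhibitor of the microRNA miR-106b shifted, 3 days after muscle injury, in the direction in which injured muscle itself changed between day 3 and day 7. There were 95 of them among the 28116 gene symbols measured. They were chosen on 2 differences of log2 CPM (read counts divided by the scaled library size, on a base 2 logarithm). The first, the day 3 inhibitor difference, is the mean of the 3 inhibitor-treated muscles minus the mean of the 3 controls. The second, the time difference, is the mean of all 6 day 7 muscles minus the mean of all 6 day 3 muscles. A gene was kept when its highest group mean reached 1 log2 CPM, its day 3 inhibitor difference was at least 0.3 in size, the 3 inhibitor values lay all above or all below the 3 control values, and both differences had the same sign. Of the 95 genes, 44 were higher with the inhibitor at day 3 and 51 were lower. Because these differences chose the genes, they are given below as descriptions and nothing is tested with them.

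RNA was measured in tibialis anterior muscles of 4 month old C57BL/10ScSn-Dmdmdx/J mice, which lack functional dystrophin and are a model of Duchenne muscular dystrophy. Every muscle had received cardiotoxin, a snake toxin that kills muscle fibres and starts their regeneration, and with it either the inhibitor (anti-miR-106b) or a scrambled control inhibitor (anti-miR-Scrambled). The 4 groups were scrambled and anti-miR-106b at day 3 and scrambled and anti-miR-106b at day 7, with 3 animals each. All groups thus share the mutation and the injury, no uninjured or uninjected muscle is analysed here, and whether an animal gave more than 1 muscle is not given in the sources used here. The sample labels give the later time as day 7, while the series' design text gives it once as 5 days and elsewhere as 7.

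MicroRNAs guide the repression of messenger RNAs through a short seed near their 5′ end, and miR-106b belongs to a large family that shares one seed and is known for promoting proliferation. Injured muscle first fills with macrophages and dividing muscle progenitors, and these recede as new fibres form and blood vessels regrow. When time is read from the control muscles, a gene shifted against it at day 3 is farther from its control day 7 level. A gene shifted with it is nearer to that level or past it. The rule pooled both arms, and for Tnfrsf12a, described below, the control time difference had the other sign.

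The mature miR-106b-5p sequence and those of 3 relatives are shown because the inhibitor was directed at this family's first member below and all 4 share the seed, bases 2 to 8, in capitals (RefSeq, GRCm38.p6).
mmu-miR-106b-5p: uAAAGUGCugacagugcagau
mmu-miR-93-5p: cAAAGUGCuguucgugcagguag
mmu-miR-17-5p: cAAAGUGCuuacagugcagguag
mmu-miR-20a-5p: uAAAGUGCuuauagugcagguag
The mature miR-106b-5p lies at chr5:138165787-138165807 on the minus strand. An 8-base match to the seed, GCACTTTA (the complement of bases 2 to 8 followed by an A), was looked for on the transcript strand in annotated 3′ UTRs. It was found in 1 of the 89 concordant genes that had an annotated 3′ UTR, which is 1.12%, against 576 of 12955 of all tested genes, 4.45%. None of 41 genes in the higher set and 1 of 48 in the lower set held it. The median 3′ UTR was 774 bases in the higher set and 2186.5 in the lower set. It was 1370 bases over all tested genes and 2805 in those with a match. The shares were not adjusted for this length. That gene was Sfrp4, a secreted modulator of Wnt signalling named after its site was seen, whose day 3 inhibitor difference was −0.35. Its site is shown with 11 bases on each side, the match in capitals, at position 1168 of a 3′ UTR of 2625 bases on chromosome 13.
Sfrp4 site: cagtgttctggGCACTTTAgtgggtcacag
Such a match is a description of the sequence only.

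Libraries held 28857739 to 42825246 reads, so that 1 read was worth 0.0213 to 0.0356 CPM. Markers of skeletal muscle were present in every library, with Ckm at 12.1 to 14.2 log2 CPM and Acta1 at 14.1 to 15.4. At day 3 the groups also differed in the share of reads from mitochondrial genes, 7.64% ± 0.109 (SD, n = 3) with the scrambled control and 4.81% ± 0.0186 (SD, n = 3) with anti-miR-106b, and in the share taken by the 10 most abundant genes, 17.3% and 12.0%. At day 7 these shares were 9.59% and 10.2% for mitochondrial genes and 23.1% and 22.2% for the top 10. The part of these shares in the results was not tested. Scaling libraries to their total reads in place of the authors' factors moved the median time difference of all tested genes from −0.01 to −0.53 and the median day 3 inhibitor difference from 0.01 to 0.20.

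The concordant genes were a small share of what the inhibitor shifted at day 3. Of the 12836 genes that reached the level minimum, 8108 (63.2%) had no overlap between the day 3 groups, and 4735 of these also differed by at least 0.3. Of the 4735, 2.01% moved with time: 44 of the 2484 that were higher (1.77%) and 51 of the 2251 that were lower (2.27%). The other 4640 (98.0%) moved against time, 2440 being higher with the inhibitor and lower in mean at day 7 than at day 3, and 2200 the reverse. Among all genes at this level, the time difference was above 0 in 49.9%. The count of 95 became 145 when scrambled day 3 replicate 1 was left out and 92 to 140 when any other library was.

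**Figure D1:**
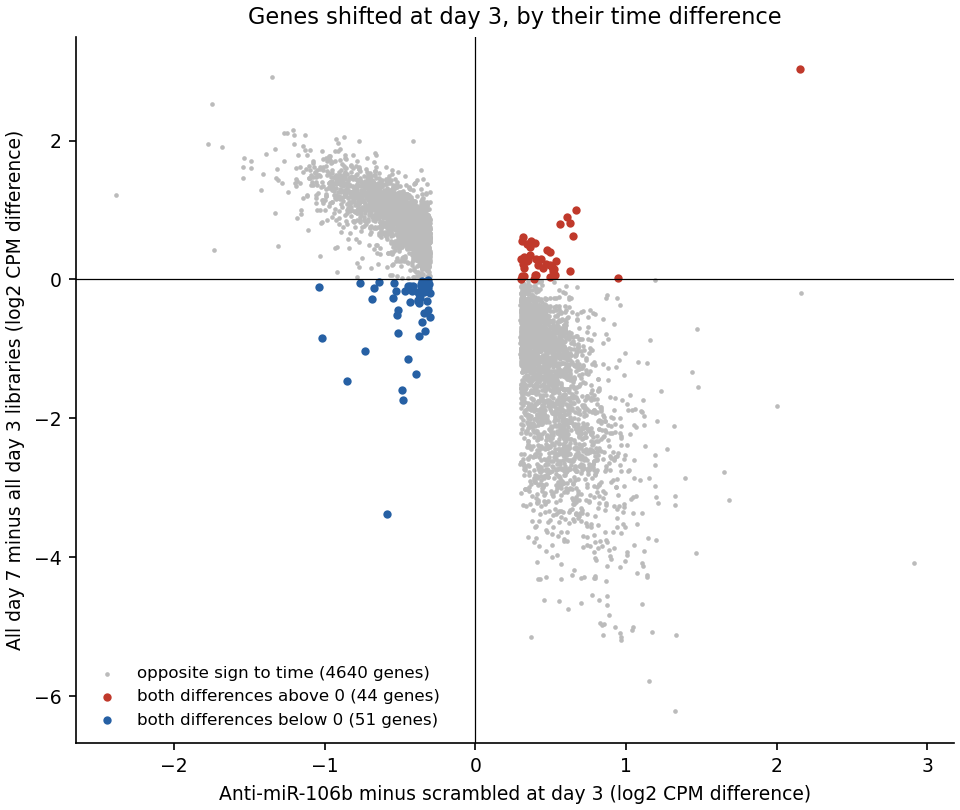
Day 3 inhibitor difference (x axis, log2 CPM) against the time difference (y axis, log2 CPM), 1 point per gene among the 4735 shifted at day 3, with the 95 concordant genes coloured. The concordant genes lie in the upper right and lower left, close to the horizontal line at 0 for most, while the other 4640 lie in the upper left and lower right.

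Most concordant genes changed little over time. The time difference was under 0.3 in size for 57 of the 95 genes (27 in the higher set, 30 in the lower set) and at least 1 for 8 (1 and 7). The median time difference was 0.27 in the higher set (0.00 to 3.03) and −0.21 in the lower set (−3.38 to −0.01), against −1.36 and 0.93 among the 2440 and 2200 genes that moved against time. The median day 3 inhibitor difference was 0.40 in the higher set (0.30 to 2.16) and −0.38 in the lower set (−1.04 to −0.30). They were also weakly expressed: the median of their highest group means was 2.94 log2 CPM, against 4.82 in the 4640 other shifted genes and 4.33 in all tested genes.

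The time difference was larger in the scrambled arm, largely by the choice of genes. In the higher set its median was 0.56 in scrambled muscles and 0.04 in anti-miR-106b muscles, and in the lower set −0.41 and −0.08. The arms had opposite signs for 40 of the 95 genes (19 higher, 21 lower). With anti-miR-106b, 42 genes (15 higher, 27 lower) had at day 3 already reached or passed the mean of scrambled muscles at day 7. The day 3 libraries enter both the inhibitor difference and the time differences, so these signs and sizes are not independent. For each gene, the scrambled minus the anti-miR-106b time difference equals the day 3 minus the day 7 inhibitor difference. Within each set the rule fixed the sign and least size of the day 3 term. Nothing is thus read from the gap between the arms.

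In limma, fitted over all 14063 genes that reached 1 CPM in at least 3 libraries (all 95 among them), a gene was called when its Benjamini-Hochberg adjusted p was below 0.05. At day 3, 25 genes of the higher set and 20 of the lower set were called, 45 of 95, where 35.7% of all tested genes were called. Between days, 62 were called in the scrambled arm, 34 higher at day 7 and 28 lower, where the share of all tested genes was 68.2%. In the anti-miR-106b arm 28 were called, 7 higher and 21 lower, where the share of all tested genes was 78.7%. The rule used these contrasts, so the counts are given with nothing read from them. Leaving out scrambled day 3 replicate 2 left 24 calls at day 3, leaving out anti-miR-106b day 3 replicate 1 left 26, and the highest count with 1 library left out was 59. With library weights 93 were called at day 3, and with total-count scaling 79 were called over time in the anti-miR-106b arm. The shares of all tested genes above belong to the main fit, and those under these other settings are not given here. These changes in count are thus not particular to the concordant genes as far as is shown.

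The contrast of the 2 arms at day 7 entered the choice only through the level minimum, which took the highest of the 4 group means. Aplnr and Pcdh1, both higher with anti-miR-106b at day 3, were lower with it at day 7, and they were the only 2 concordant genes called, where 0.064% of all tested genes (9 of 14063) were called in either direction, 0.0569% lower and 0.00711% higher. P-values here measure the spread between animals of a group. The calls are few and rest on single libraries: 8 concordant genes were called without scrambled day 7 replicate 1, 4 without anti-miR-106b day 7 replicate 2, and none without scrambled day 7 replicate 2, where Aplnr had an adjusted p of 0.0554. The share of all tested genes called in these fits is not given here. Pcdh1 was lost on leaving out any of 8 libraries (adjusted p 0.0548 to 0.116).

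Aplnr, on the plus strand of chromosome 2 from 85136225 to 85139923 (GRCm38), codes for the endothelial receptor that apelin binds. It was at 4.56, 4.43 and 4.52 log2 CPM in scrambled muscles at day 3 and at 4.91, 4.81 and 4.77 with anti-miR-106b. At day 7 it was at 5.17, 5.23 and 5.26 in scrambled muscles and at 4.65, 4.63 and 4.67 with anti-miR-106b. The groups did not overlap at either day, and the order of the arms was turned round between them. The day 7 difference was −0.57 ± 0.06 (SE) on the log2 scale, with an adjusted p of 0.00651 in limma.

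Pcdh1 encodes protocadherin 1, a cell adhesion protein. Scrambled muscles were at 2.79, 2.74 and 2.94 log2 CPM at day 3, below the 3.32, 3.43 and 3.20 of anti-miR-106b muscles. At day 7 the scrambled values of 3.47, 3.66 and 3.60 lay above the 2.95, 2.94 and 3.04 of anti-miR-106b muscles. Its day 7 difference was −0.60 ± 0.09 (SE), with an adjusted p of 0.0376 in limma.

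The next 4 genes by p at day 7 had the same turn but missed the threshold. Notch4, a Notch receptor of endothelium, was at 2.78, 2.60 and 2.95 log2 CPM in scrambled and 3.31, 3.15 and 3.07 in anti-miR-106b muscles at day 3. At day 7 it was at 3.56, 3.44 and 3.79 in scrambled and 2.91, 2.90 and 3.05 in anti-miR-106b muscles, a difference of −0.64 ± 0.11 (SE) with a limma adjusted p of 0.0554. Its groups did not overlap at either day. Emcn, which encodes the endothelial surface sialomucin endomucin, was at 3.44, 3.37 and 3.34 with the control and 3.78, 3.66 and 3.72 with the inhibitor at day 3. At day 7 the control muscles were at 4.20, 4.10 and 3.86 and the inhibitor muscles at 3.60, 3.57 and 3.68, which gave −0.44 ± 0.09 (SE) and a limma adjusted p of 0.0704. Again neither day showed an overlap.

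Ephb4, a receptor tyrosine kinase of venous endothelium that binds ephrin-B2, had day 3 control values of 3.97, 3.96 and 3.99 log2 CPM, against 4.30, 4.48 and 4.33 with anti-miR-106b. Its day 7 values were 4.34, 4.46 and 4.28 in scrambled and 4.07, 4.09 and 4.18 in anti-miR-106b muscles, a difference of −0.25 ± 0.07 (SE) with a limma adjusted p of 0.229. Gimap1 belongs to a family of GTPases best known from lymphocytes. It was at 1.14, 1.02 and 0.92 in scrambled and 1.55, 1.66 and 1.44 in anti-miR-106b muscles at day 3. The day 7 values were 1.64, 1.73 and 1.70 against 1.28, 1.00 and 1.24, a difference of −0.51 ± 0.13 (SE) with a limma adjusted p of 0.166. For both genes the arms were apart at each day, in opposite order.

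**Figure D2:**
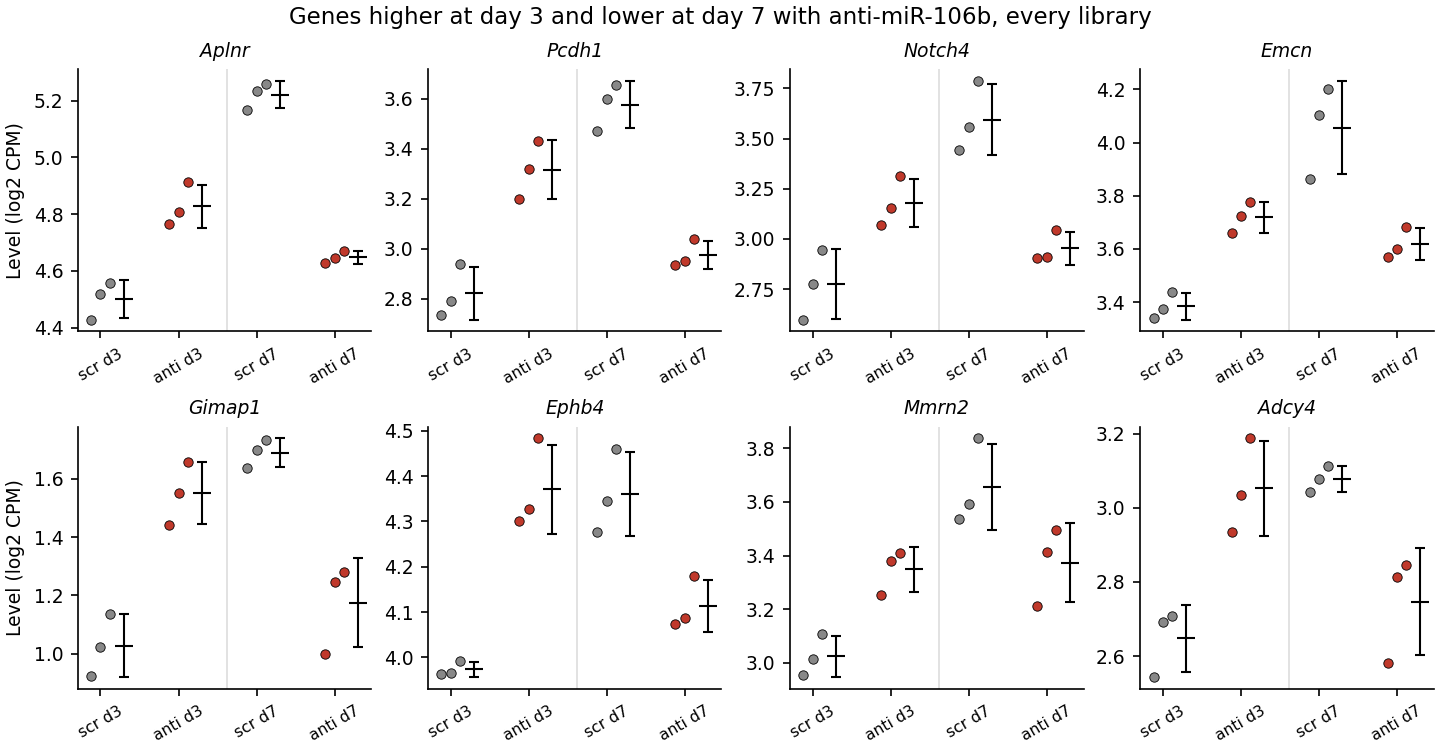
Level in every muscle (y axis, log2 CPM) of 8 genes that were higher with anti-miR-106b at day 3 and lower at day 7, by group (x axis), with 1 point per animal placed in order of value (grey for scrambled, red for anti-miR-106b) and bars for the mean ± SD. In all 8 the inhibitor points lie above the control points at day 3 and below them at day 7.

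Over the whole higher set, 11 of the 44 genes were lower with anti-miR-106b at day 7 without overlap, where 5.69% of all tested genes were. Besides the 6 genes above these were Mmrn2, Adcy4, Gimap4, Tinagl1 and Zfp979, of which Mmrn2, Adcy4, Gimap4 and Zfp979 are named after their values were seen. Only Gm28286 was higher without overlap, where 5.18% of all tested genes were. It reached the level minimum only through its mean in anti-miR-106b muscles at day 7 (1.05 log2 CPM, against 0.11 in scrambled muscles). Nothing is thus read from its order at day 7. In the lower set 2 genes (Adamts15 and Mst1r) were lower without overlap and 1 (Anxa8) was higher. At an unadjusted p below 0.05, 10 of the higher set were lower and 4 higher at day 7, and 5 of the lower set were lower and 0 higher, 19 of 95 in all, where 11.2% of all tested genes passed, 5.57% lower and 5.67% higher. The median day 7 difference was −0.07 in the higher set and −0.04 in the lower set, against 0.01 over all tested genes. No gene of the lower set was called at day 7.

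**Figure D3:**
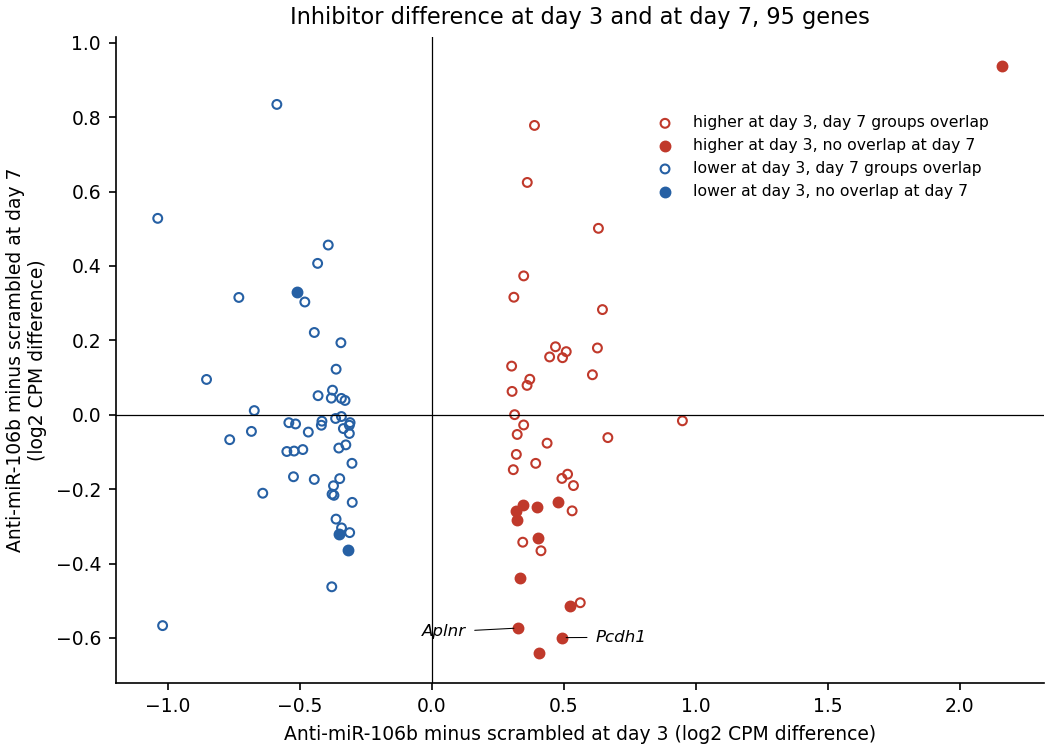
Inhibitor difference at day 3 (x axis, log2 CPM) against the inhibitor difference at day 7 (y axis, log2 CPM) for the 95 genes, filled where the day 7 groups do not overlap. Filled points are mostly genes of the higher set with a negative day 7 difference, Aplnr and Pcdh1 among the lowest.

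Vessel genes were grouped after their values were seen. The 11 of the higher set placed here were Aplnr, Notch4, Emcn, Ephb4, Icam2, Mmrn2, Tmem88, Adcy4, Exoc3l2, Cx3cl1 and Ccl21a. Icam2 is an endothelial adhesion molecule, Mmrn2 (multimerin 2) a matrix glycoprotein of endothelium, Cx3cl1 the membrane-bound chemokine fractalkine and Ccl21a a chemokine of lymphatic vessels. Their day 3 inhibitor differences ran from 0.32 to 0.54, and 8 of the 11 were called higher at day 3, where 16.3% of all tested genes were; the rule used that contrast. At day 7 the inhibitor difference was below 0 in 10 of 11 (−0.64 to 0.17, Ccl21a being the exception), 7 at an unadjusted p below 0.05 and 6 without overlap. Over all tested genes these shares were 48.2% below 0, 5.57% and 5.69%. The group was put together with the values in view and may leave out other genes that vessels express. Of the 30 genes of the higher set placed in no group, 15 had a day 7 difference below 0 and 15 above 0. Rbp7 (0.50) was among the latter. The time difference was above 0 for all 11 in scrambled muscles (0.35 to 0.85) and for 4 with anti-miR-106b (−0.32 to 0.16). These directions of time hold with the authors' scaling, and the rule favours such a gap between the arms, as described above. With total-count scaling none of the 11 stayed concordant, and with quantile normalization 9 did.

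Other endothelial genes give the surroundings of these 11. Of 19 endothelial markers on a list, 2 (Emcn and Aplnr) were concordant, 4 were shifted at day 3 by the rule, where 36.9% of genes at the level minimum were, and 9 were called higher there, where 16.3% of all tested genes were. At day 7 the difference was below 0 in 19 of 19, where 48.2% of all tested genes were, also with total-count scaling and with quantile normalization, with a median of −0.37 (−0.57 to −0.07), and 1 (Aplnr) was called. The summed level of the 19 markers was 372 to 397 CPM in scrambled and 420 to 460 CPM in anti-miR-106b muscles at day 3, and 560 to 606 CPM and 444 to 482 CPM at day 7. None of the 19 was without a read in any library. In whole muscle, fewer cells of a type and less RNA per cell cannot be told apart, and the part of the endothelial share in these results was not tested. Summed pericyte and smooth muscle markers overlapped between arms at both days. They were at 6035 to 6437 and 5620 to 6109 CPM at day 3 and 7322 to 7805 and 7001 to 8607 CPM at day 7. That list includes Des, which muscle fibres also express and which alone was at 12.2 to 12.9 log2 CPM over all libraries. The sum thus mostly follows Des and does not describe pericytes or smooth muscle.

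Genes with an ordinary symbol in the higher set and the largest smaller value of the 2 differences were of varied function. Gabrd, the delta subunit of the GABA-A receptor, was at 1.44, 1.00 and 1.21 log2 CPM in scrambled and 2.14, 1.58 and 1.94 in anti-miR-106b muscles at day 3. By day 7 the scrambled muscles were at 2.18, 2.60 and 2.96 and the anti-miR-106b muscles at 1.96, 2.57 and 3.03. The arms were apart at day 3 (difference 0.67) and overlapped at day 7 (difference −0.06 ± 0.25 SE). Rab6b, a GTPase of Golgi traffic, had day 3 values of 1.84, 1.77 and 1.92 with the control and 2.60, 2.19 and 2.57 with the inhibitor. Its day 7 values were 3.12, 2.56 and 3.31 against 3.24, 3.03 and 3.04, with overlap.

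Rbp7, a cellular retinoid-binding protein, was at 0.11, 0.09 and 0.18 log2 CPM in scrambled muscles at day 3, which is 38 to 41 reads, and at 0.96, 0.62 and 0.69 with anti-miR-106b, 61 to 91 reads. At day 7 it was at 0.79, 0.96 and 1.28 in scrambled and 1.18, 1.79 and 1.55 in anti-miR-106b muscles, with a difference of 0.50 ± 0.19 (SE) and a limma adjusted p of 0.334. The inhibitor mean was the higher one at both days, and only the day 3 groups were apart. Wif1, a secreted inhibitor of Wnt ligands, was at 1.34, 0.39 and 0.69 in scrambled and 1.59, 1.37 and 1.40 in anti-miR-106b muscles at day 3. Its day 7 values of 1.78, 1.45 and 1.60 and of 2.61, 1.51 and 1.55 overlapped.

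Gm28286, a gene model on chromosome 1 outside the naming rule, had the largest day 3 difference of all 95, on few reads. It had 11, 1 and 2 reads in the scrambled muscles at day 3 and 16, 18 and 15 with anti-miR-106b, then 51, 43 and 21 and 58, 66 and 60 at day 7. Its day 3 difference of 2.16 on the log2 scale rests on those few reads. Hspa1a, the inducible Hsp70 chaperone, had 50 to 53 reads in scrambled and 72 to 88 in anti-miR-106b muscles at day 3, a difference of 0.37, and a time difference of 0.55.

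The higher set held 3 genes of muscle fibres, grouped after the values were seen. Myh2 encodes the myosin heavy chain of fast oxidative fibres. It was at 8.35, 8.71 and 8.59 log2 CPM in scrambled and 8.85, 9.39 and 9.09 in anti-miR-106b muscles at day 3. Its day 7 values were 11.01, 9.25 and 9.36 in scrambled and 9.05, 9.47 and 9.59 in anti-miR-106b muscles. Scrambled day 7 replicate 1 lay above every other library, and without it the time difference was 0.51 in place of 0.79. Myh2 was the 1 concordant gene on a list of 26 mature fast fibre genes. All 26 were shifted at day 3 by the rule, where 36.9% of genes at the level minimum were. Only Myh2 was shifted upwards, and the others were lower with the inhibitor. The summed level of that list was 162618 to 192234 CPM in scrambled and 105367 to 114570 CPM in anti-miR-106b muscles at day 3.

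Myoz2 (myozenin 2), a Z-disc protein that binds calcineurin, was at 6.16, 5.71 and 5.90 log2 CPM in scrambled and 6.36, 6.47 and 6.43 in anti-miR-106b muscles at day 3. At day 7 it was at 7.18, 6.15 and 6.13 and at 6.52, 6.44 and 6.95, with overlap. Xirp1, which encodes the actin-binding protein Xin, was at 7.55, 7.16 and 7.29 with the control and 7.69, 7.82 and 7.58 with the inhibitor at day 3. Its day 7 values were 7.89, 7.85 and 7.27 against 8.83, 7.79 and 8.26, a difference of 0.62 ± 0.21 (SE) with a limma adjusted p of 0.29. The time differences of 0.39 for Myoz2 and 0.47 for Xirp1 became −0.13 and −0.05 with total-count scaling, and that of Myh2 became 0.28.

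**Figure D4:**
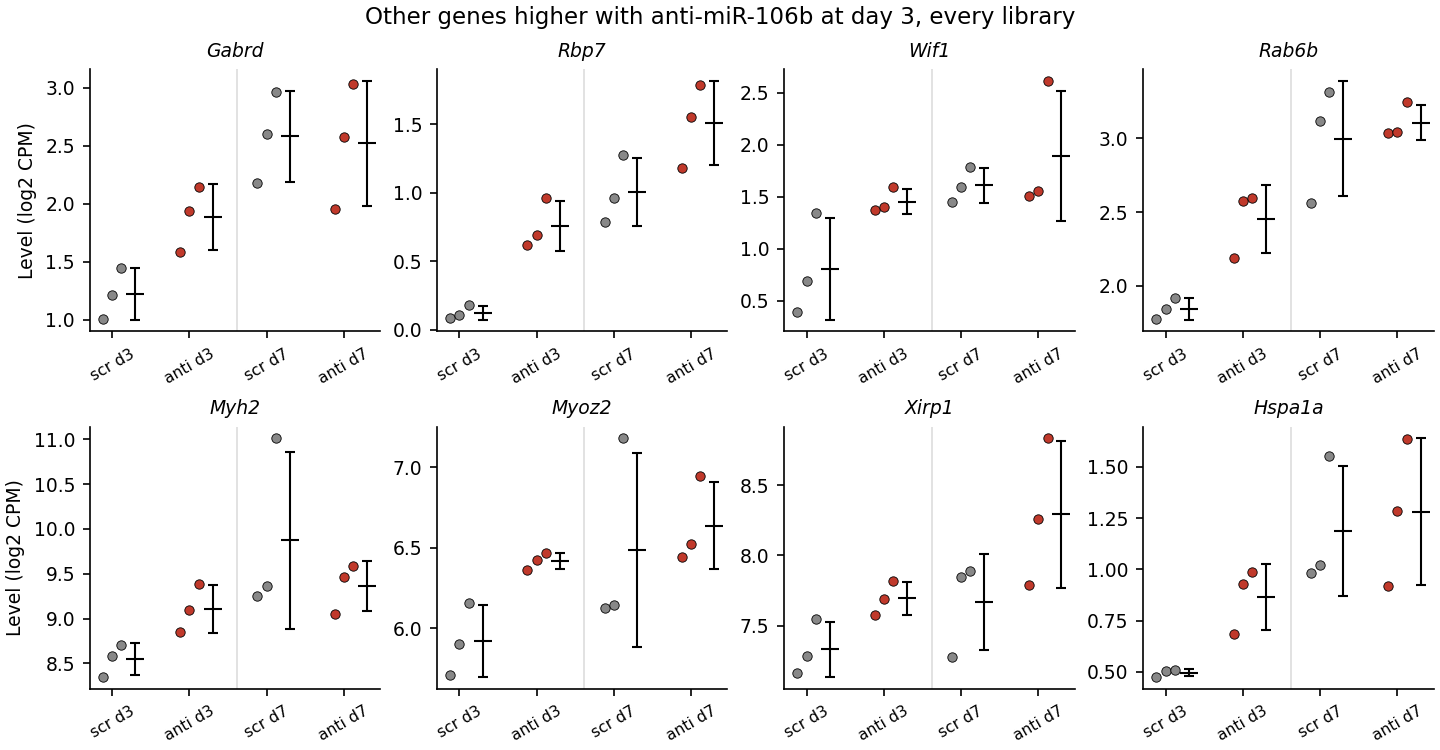
Level in every muscle (y axis, log2 CPM) of 8 further genes that were higher with anti-miR-106b at day 3, by group (x axis), with 1 point per animal placed in order of value (grey for scrambled, red for anti-miR-106b) and bars for the mean ± SD. Inhibitor points lie above control points at day 3, and the arms overlap at day 7.

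Further named genes of the higher set were secreted or membrane proteins. Tinagl1, a basement membrane protein, was at 3.18, 2.99 and 2.93 log2 CPM in scrambled and 3.52, 3.71 and 3.29 in anti-miR-106b muscles at day 3, and at 3.75, 3.88 and 3.81 and 3.42, 3.61 and 3.70 at day 7. It thus shared the turn of the vessel genes, with a day 7 difference of −0.24 ± 0.11 (SE) and a limma adjusted p of 0.461. Spock2, a matrix proteoglycan, had a day 3 difference of 0.36, and Tmem88, an inhibitor of Wnt signalling, one of 0.34. Their time differences were 0.35 and 0.51 with the authors' scaling and −0.17 and −0.01 with total-count scaling. Their day 7 differences were 0.08 ± 0.13 and −0.34 ± 0.14 (SE).

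The rest of the higher set, described after the values were seen, moved by 0.30 to 0.95 at day 3. Alas2, which starts haem synthesis in red cells, was at 0.65, 1.64 and 1.66 log2 CPM in scrambled and 2.13, 2.28 and 2.39 in anti-miR-106b muscles at day 3, and its time difference was 0.02. Cpxm2, a carboxypeptidase-like protein, had day 3 values of 4.40, 4.04 and 4.23 against 4.84, 4.93 and 4.77 and a time difference of 0.12. Cyr61, a matricellular protein, had 4.72, 5.25 and 5.00 against 5.49, 5.53 and 5.49 and a time difference of 0.13. For these 3 genes the time difference was small beside the day 3 inhibitor difference. Tnfrsf12a, the receptor of TWEAK, was the 1 gene of the 95 whose scrambled time difference had the other sign (−0.19), and its day 7 difference of 0.78 ± 0.27 (SE) had a limma adjusted p of 0.293. Mknk2, Slc25a25, Osgin1, Penk, Tnmd, Crnde, Grrp1, Lrfn3, Zfat, Hilpda, Mark1 and Eya2 also belonged to the set, with Ssna1 named below.

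Several genes of the lower set are known from immune cells. Il1rl1 encodes ST2, the receptor of interleukin 33. It was at 2.46, 3.00 and 2.61 log2 CPM in scrambled and 2.12, 1.73 and 1.68 in anti-miR-106b muscles at day 3, and at 0.45, 1.02 and 0.78 and 1.18, 0.59 and 0.77 at day 7. The arms were apart at day 3 (−0.85) and overlapped at day 7 (0.09 ± 0.21 SE), and every day 7 muscle lay below every day 3 muscle. Ear2, an eosinophil-associated ribonuclease, was at 1.64, 1.74 and 1.58 in scrambled and 1.07, 0.83 and 0.87 in anti-miR-106b muscles at day 3. Its day 7 values spread from −0.55 to 1.22 over both arms.

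Mmp12, the macrophage elastase, had the largest fall in means over time of the 95 genes. Scrambled muscles were at 5.98, 5.61 and 5.76 log2 CPM at day 3 and anti-miR-106b muscles at 5.06, 5.33 and 5.20. At day 7 scrambled muscles were at 1.52, 1.51 and 2.05 and anti-miR-106b muscles at 3.65, 0.92 and 3.01. The inhibitor animals thus lay on both sides of the controls at day 7, and the difference of 0.83 ± 0.47 (SE) had a limma adjusted p of 0.542. Ccl22, a chemokine of macrophages and dendritic cells, was at 1.25, 0.86 and 1.14 in scrambled and 0.74, 0.53 and 0.51 in anti-miR-106b muscles at day 3, and all day 7 values were between −1.56 and −0.16. It lies 20.3 kb from Cx3cl1 on chromosome 8, and the 2 chemokines were in opposite sets.

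Xcr1, a chemokine receptor of cross-presenting dendritic cells, Serpinb1a, an inhibitor of neutrophil proteases, and Mst1r, a receptor tyrosine kinase of macrophages, joined these in a group of 7 immune genes made after the values were seen. Their day 3 differences ran from −0.85 to −0.32 and 1 of the 7 (Il1rl1) was called, where 19.4% of all tested genes were called lower. The day 7 difference was above 0 in 5 of 7, while over all tested genes it was below 0 in 48.2%. Macrophage markers as a list went the other way at day 3: none of 20 was concordant, and their summed level was 5948 to 6241 CPM in scrambled and 8320 to 8911 CPM in anti-miR-106b muscles. Dendritic cell markers summed to 123 to 130 CPM and 178 to 195 CPM, where 7 of 10 tested had a day 3 difference above 0 and Xcr1 was among the other 3. The median of the 10 was only 0.11. Irf8, Fscn1, Ccr7 and Siglech, named after their values were seen, had differences of 0.61 to 0.72. The others ran from −0.38 (Xcr1) to 0.16 (Cd209a), so the sum does not describe the list as a whole. Mast cell and eosinophil markers summed to 23.7 to 33.4 CPM and 26.0 to 29.0 CPM, with Prg2 and Il5ra without a read in at least 1 library. The part of these cells in the values of the immune genes was not tested.

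Matrix proteases were the list with the most concordant genes, 3 of 22 (Mmp3, Mmp12 and Adamts15). Over that list 4 genes were called higher and 7 lower at day 3, where 16.3% and 19.4% of all tested genes were, with a median difference of −0.01, against 0.01 over all tested genes. Mmp3, stromelysin 1, was at 5.24, 5.22 and 5.18 log2 CPM in scrambled and 4.78, 4.69 and 4.83 in anti-miR-106b muscles at day 3, and at 3.12, 4.05 and 4.05 and 4.11, 3.36 and 4.41 at day 7. Adamts15, which cleaves versican, was at 3.57, 3.73 and 3.59 against 3.16, 3.39 and 3.29 at day 3 and at 2.87, 2.89 and 3.25 against 2.65, 2.62 and 2.77 at day 7. Adamts15 was lower with the inhibitor without overlap at both days, and its day 7 difference of −0.32 ± 0.11 (SE) had a limma adjusted p of 0.29.

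Mmp12 and Mmp3 are neighbours on chromosome 9, with 76.3 kb between them, and their promoters are shown because both genes were lower with the inhibitor than with the control at day 3 and lower in both arms' means at day 7 than at day 3. The windows are the 250 bases before and 50 bases from the RefSeq start (GRCm38.p6, plus strand), chr9:7347124-7347423 for Mmp12 and chr9:7445572-7445871 for Mmp3. Capitals mark the AP-1 motif TGACTCA, found here as its reverse complement TGAGTCA, which starts at −44 and −46 from the start.
Mmp12 promoter: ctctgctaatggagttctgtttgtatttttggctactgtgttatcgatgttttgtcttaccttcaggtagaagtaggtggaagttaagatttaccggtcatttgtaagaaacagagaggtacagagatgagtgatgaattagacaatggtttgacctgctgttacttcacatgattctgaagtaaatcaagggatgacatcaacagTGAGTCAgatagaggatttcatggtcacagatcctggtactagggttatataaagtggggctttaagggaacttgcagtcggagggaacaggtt
Mmp3 promoter: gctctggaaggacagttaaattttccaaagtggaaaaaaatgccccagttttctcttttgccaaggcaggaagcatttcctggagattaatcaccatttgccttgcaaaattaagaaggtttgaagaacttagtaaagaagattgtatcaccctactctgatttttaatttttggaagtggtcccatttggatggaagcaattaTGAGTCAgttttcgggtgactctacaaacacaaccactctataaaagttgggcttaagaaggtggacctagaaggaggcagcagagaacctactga
On either strand, TGACTCA was present in 3 of 44 promoter windows of the lower set (6.82%) and 3 of 35 of the higher set (8.57%), against 536 of 13633 windows over all genes with 1 (3.93%). The E-box CAGCTG was in 13.6% and 5.71%, against 15.9%. The interferon response motif (ISRE) was in 4.55% and 0%, against 3.21%, and the STAT motif TTCNNNGAA in 2.27% and 2.86%, against 6.70%. The MEF2 motif was in 2.27% and 2.86%, against 3.26%, and the Sp1 motif GGGCGG in 40.9% and 60.0%, against 60.0%. Windows were available for 66 of the 95 genes, some with more than 1 start. These are counts of letters, and the numbers of windows are small.

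Genes of stroma and matrix made up 9 of the lower set, Mmp3 and Adamts15 among them and again grouped after the values were seen, with day 3 differences of −0.68 to −0.31. Dpp4, a surface peptidase of interstitial progenitor cells, was at 3.25, 3.56 and 3.52 log2 CPM in scrambled and 3.08, 2.79 and 2.92 in anti-miR-106b muscles at day 3, and at 2.16, 2.41 and 2.73 and 2.60, 2.39 and 2.24 at day 7. Dpp4 and Tnfaip6, a hyaluronan-binding protein, were the 2 concordant genes among 17 markers of fibro-adipogenic progenitors, whose summed level overlapped between the arms at day 3 (1988 to 2235 and 1903 to 2042 CPM). Col4a5, a basement membrane collagen chain named after its values were seen, was at 3.39, 3.32 and 3.46 against 2.92, 3.11 and 3.01 at day 3, and its day 7 difference of −0.46 ± 0.14 (SE) had a limma adjusted p of 0.251. Sned1, Frem1, Fbln7 and Sfrp4 were the others. The day 7 difference was below 0 in 8 of the 9, where 48.2% of all tested genes were. Nothing is read from this count, as the group was made with the values in view.

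Other named genes of the lower set had varied roles. Miat, a long noncoding RNA, had one of the largest day 3 differences. It was at 2.19, 2.21 and 2.19 log2 CPM in scrambled and 1.49, 0.99 and 1.06 in anti-miR-106b muscles at day 3, and at 1.26, 1.06 and 1.05 and 1.08, 0.40 and 0.19 at day 7. The arms were apart at day 3 (−1.02), and at day 7 they overlapped at 1 point, with a difference of −0.57 ± 0.21 (SE) and a limma adjusted p of 0.32. F2rl1, a receptor cleaved by trypsin-like proteases, had day 3 values of 1.92, 2.35 and 2.01 against 1.41, 1.69 and 1.76, and day 7 values of −0.29, 0.21 and −0.01 against 0.86, 0.01 and −0.04.

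Mt3, a metallothionein, was at 5.28, 5.17 and 5.17 log2 CPM in scrambled and 4.87, 4.91 and 4.66 in anti-miR-106b muscles at day 3, with a time difference of −1.36. Anxa8, an annexin, was at 2.30, 2.54 and 2.05 against 1.74, 1.82 and 1.80 at day 3 and at 1.08, 1.58 and 1.64 against 1.83, 1.67 and 1.79 at day 7. It was the 1 gene of the lower set that was higher without overlap at day 7 (0.33 ± 0.16 SE, limma adjusted p 0.461), and its time difference of −0.44 became 0.02 with quantile normalization. Itgb3, the beta 3 integrin chain, had a day 3 difference of −0.37 and a time difference of −0.82, and Lrrn4cl had −0.52 and −0.51.

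**Figure D5:**
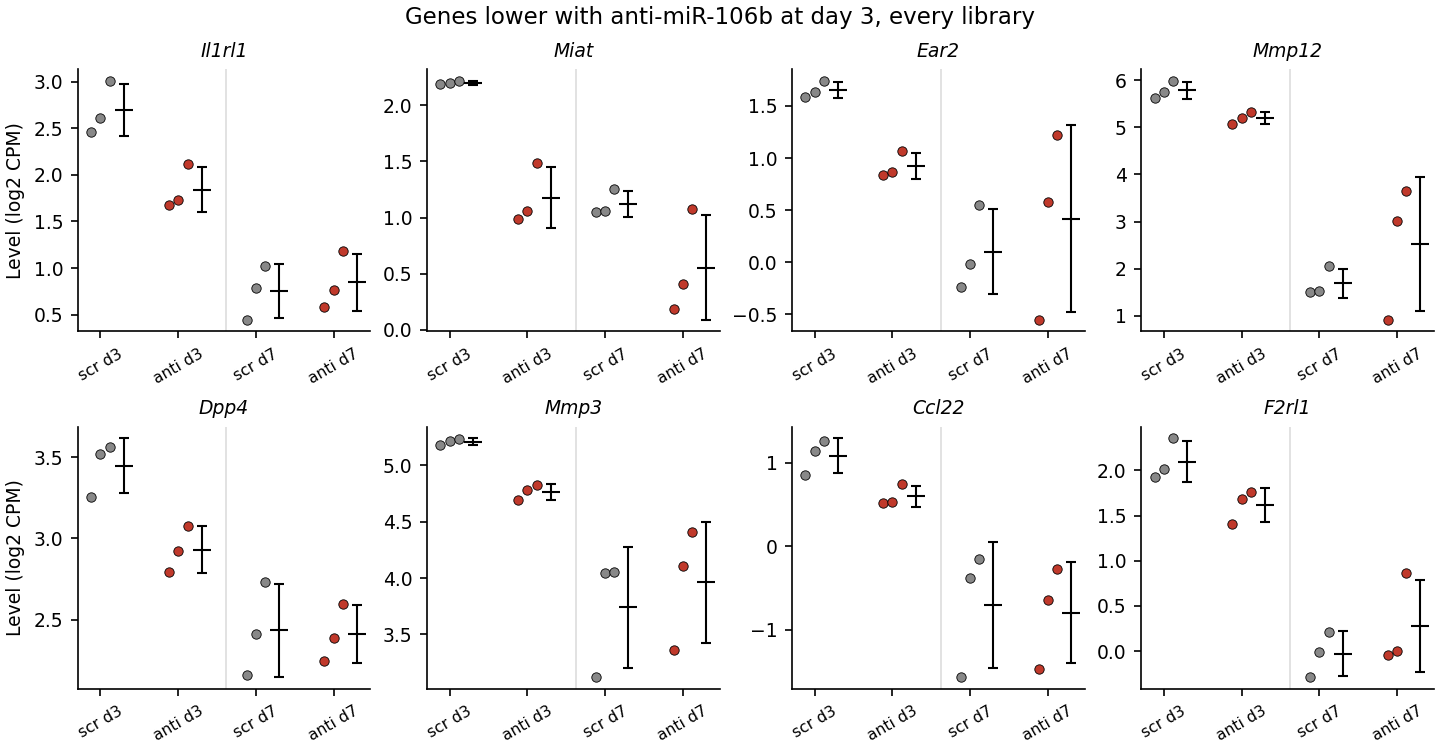
Level in every muscle (y axis, log2 CPM) of 8 genes that were lower with anti-miR-106b at day 3, by group (x axis), with 1 point per animal placed in order of value (grey for scrambled, red for anti-miR-106b) and bars for the mean ± SD. Inhibitor points lie below control points at day 3, both arms are lower at day 7 in their means, and the arms overlap there.

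Of the remaining genes of the lower set, 7 act in transcription or on chromatin: Tet3, Hdac9, Med12, Ss18l1, Klf4, Zfp626 and Zfp846, all named after their values were seen. Their day 3 differences were −0.52 to −0.31, 5 of the 7 were called lower, where 19.4% of all tested genes were and the rule used that contrast, and their time differences were small, at −0.17 to −0.02. With anti-miR-106b all 7 had a time difference above 0 (0.00 to 0.15), while in scrambled muscles all 7 were below 0 (−0.39 to −0.15). With time differences this small the rule favours such a split of signs, so nothing is read from it. Tet3, which oxidises methylated cytosine in DNA, illustrates them with 5.05, 5.01 and 5.15 log2 CPM in scrambled and 4.73, 4.70 and 4.72 in anti-miR-106b muscles at day 3, and 4.92, 4.75 and 5.08 and 4.98, 4.68 and 4.82 at day 7. Rasd2, a small GTPase, had the most negative day 3 difference of the 95 (−1.04), from 2.19, 3.13 and 2.91 against 1.92, 1.45 and 1.74, and a time difference of −0.11. Efhd1, a mitochondrial calcium-binding protein, Clu, the chaperone clusterin, and Stxbp6 had day 3 differences of −0.76, −0.67 and −0.64 with time differences of −0.06, −0.12 and −0.04. Dcbld2, Ammecr1l, Fam13b, Abca6, AC098880.2, Tenm4, Tppp3, A930033H14Rik, Slc6a9, Rab27b, Atp7a, Adcyap1r1, Lrch3 and AC160637.1 also belonged to the set, with day 3 differences between −0.55 and −0.31.

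The thresholds passed close to many genes. Just inside the 0.3 minimum were Fam167a (−0.301), Plscr4 (−0.302) and Ssna1 (0.303), and just outside were Serpina3n (−0.298), Spaca6 (−0.297) and the endothelial transcription factor Sox18 (0.296). Nearest to a time difference of 0 on the inside were Ssna1 (0.003), Tnfrsf12a (0.007) and Fbln7 (−0.014). Nearest on the outside were Apln, which encodes the ligand of the apelin receptor, with a day 3 difference of 1.19 and a time difference of −0.006, Arhgap21 (0.012) and Sema3f (−0.013). Apln itself was thus shifted more than its receptor and fell outside the set by its time difference alone.

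Of 55 gene lists, 17 held a concordant gene and 38 held none. Of the 95 genes, 21 were on a list and 74 on none. Over all genes at the level minimum, 0.74% were concordant and 36.9% were shifted. All 47 interferon-induced genes that were measured were shifted at day 3 by the rule and none was concordant, likewise all 27 oxidative phosphorylation genes. Near neighbours were Mmp12 with Mmp3, Gimap1 with Gimap4 (47.0 kb), Gm12258 with 2810021J22Rik (5.3 kb), each within 1 set, and Ccl22 with Cx3cl1.

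Membership depended on single libraries for many genes. Of the 95, 44 (23 higher, 21 lower) met the rule when any of the 12 libraries was left out, 22 met it with total-count scaling and 53 with quantile normalization. Among the 11 that met it in all of these were Gabrd, Rbp7, Rab6b, Myh2 and Hspa1a in the higher set and Il1rl1, Miat, Ear2, Mmp12 and Dpp4 in the lower set. Neither gene called at day 7 was among the 11.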

How the data were processed

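The submitters' processing notes name the mm10 genome, the aligner STAR, the counter featureCounts, limma (version 3.34.9), edgeR (version 3.20.9), and for reads Trim Galore and FastQC, with no settings; strand handling in counting is not given in the sources used here. The deposited table holds log2 CPM for 12 libraries, with library sizes scaled by the authors. Removing the logarithm gave whole reads within 0.01 read for 100% of low values, from which depths were taken. Concordant genes were found by the stated rule. limma 3.58.1 (R 4.3.3) was fitted to the log2 values of all 12 libraries as 4 group means, with a trend in the prior variance and Benjamini-Hochberg adjustment over 14063 genes. It was tested on simulated data. The genes, lists and role groups were chosen with earlier results of these data known. Named genes were, in each direction, the 12 genes with an ordinary symbol (no gene model or clone names) and the largest smaller value of the 2 differences, up to 4 of any list with at least 3 concordant genes, the 6 with the smallest day 7 p and the 3 on each side of 0.3; others are said to be chosen after their values were seen. Log2 differences of genes with few reads carry the authors' small prior count. Gene positions are GENCODE's and promoters and microRNAs RefSeq's, both on GRCm38. The values of 1 gene that this rule names are not reported here.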

Additional observations from a re-analysis of the deposited data

Results flagged for a closer look

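In 12 concordant genes every inhibitor animal lay on one side of the controls at day 3 and every one on the other side at day 7. The rule required the day 3 separation of every concordant gene. At day 7, 5.69% of all tested genes were lower without overlap and 5.18% were higher. The day 7 difference was −0.573 for Aplnr, −0.599 for Pcdh1, −0.642 for Notch4, −0.439 for Emcn, −0.514 for Gimap1 and −0.247 for Ephb4. It was −0.331 for Adcy4, −0.282 for Mmrn2, −0.244 for Gimap4, −0.235 for Tinagl1 and −0.259 for Zfp979. These 11 were higher with anti-miR-106b at day 3, and Anxa8, at 0.331, was lower there. The difference between the days was not tested for any of them.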

How the results depend on the processing

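The count of 95 concordant genes (44 higher, 51 lower, 2.01% of shifted genes) became 222 (117, 105, 4.69%) with time taken from the scrambled arm alone and 57 (26, 31, 1.20%) from the anti-miR-106b arm alone. A minimum of 0.5 on the day 3 difference gave 28 (13, 15, 1.25%), one of 0.2 gave 225 (115, 110, 3.49%), a level minimum of 3 log2 CPM gave 47 (23, 24, 1.28%) and a time difference of at least 0.3 gave 38 (17, 21, 0.803%). The higher set held 26 genes with total-count scaling and 104 with quantile normalization, and the lower set 32 with 1 CPM added. Leaving out 1 library gave 92 to 145 genes, 40 to 71 higher, 49 to 75 lower and 1.94% to 2.85%; the higher set reached 71 without anti-miR-106b day 3 replicate 3 and 70 without scrambled day 3 replicate 1.

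Calls at day 7 numbered 0 to 8 with 1 library left out. Same-numbered muscles of the 2 arms had correlations of deviations of −0.04 to 0.14, so the numbers were not treated as pairs; with the replicate block the day 7 calls numbered 0. Calls at day 3 (45) became 93 with library weights and 24 to 59 with 1 library left out. Calls over time became 41 with the 5 CPM filter and 52 to 67 with 1 library left out in the scrambled arm (62). In the anti-miR-106b arm (28) they became 18 with the 5 CPM filter, 49 with quantile normalization, 79 with total-count scaling and 20 to 29 with 1 library left out. Shares of all tested genes are given for the main fit only, so nothing about the concordant genes is read from these changes. The 19 genes at an unadjusted p below 0.05 at day 7 were 16 to 23 with 1 library left out. The 11 of the higher set lower without overlap were 9 with quantile normalization and 12 with total-count scaling. With 1 library left out they were 11 to 15. Leaving out a library cannot make separate groups overlap, so that count could not fall below 11.

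With total-count scaling the time difference turned to −0.091 for Tinagl1, −0.13 for Myoz2, −0.049 for Xirp1, −0.17 for Spock2, −0.0076 for Tmem88, −0.22 for Notch4, −0.23 for Emcn, −0.25 for Aplnr, −0.31 for Pcdh1, −0.37 for Gimap1, −0.45 for Ephb4 and −0.51 for Ssna1. With quantile normalization it turned to 0.018 for Anxa8 and 0.19 for Plscr4. That of Ssna1 ran from −0.037 to 0.040 with 1 library left out and was below 0 without any of 5 libraries. Total-count scaling lowers the median of all time differences, as given above; the cause of the other changes was not tested.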
